A study of Mus musculus with 9 samples.

Results

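Haemoglobin transcripts were followed here in RNAseq libraries of a brain region, the mediobasal hypothalamus (MBH), through 5 genes chosen by name. These were the adult alpha-globin genes Hba-a1 and Hba-a2, the adult beta-globin genes Hbb-bs and Hbb-bt, and Alas2, which encodes the erythroid form of the first enzyme of haem synthesis. They were 5 of the 27665 genes that had at least 1 count, and all 5 were among the 15340 genes that passed the filter on low counts and were tested. The 9 libraries came from male wild-type C57Bl/6 mice at postnatal day 21. In the 4 CTRL libraries the dams drank water with no supplement, and in the 5 Emul libraries the dams drank water with 1% sodium carboxymethyl cellulose and 1% polysorbate 80, both used as emulsifiers in food. The dams were exposed before mating, through pregnancy and during lactation, and the litters stayed with them until weaning, so exposure of the pups through the dam and by drinking from her bottle cannot be told apart. Each library stood for a litter of its own, so that p-values measure the spread between litters.

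Haemoglobin carries oxygen as a tetramer of alpha and beta chains, each holding a haem group, and red cell precursors make both chains together with the haem. Alas2 sets the pace of haem synthesis in these precursors, whereas most other cells use its relative Alas1. The young red cell, or reticulocyte, loses its nucleus but keeps messenger RNA for a short time in the blood, and globin transcripts of other cells, neurons included, have also been described. In a piece of tissue, fewer cells of a type and less RNA per cell cannot be told apart.

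On the mm10 build, Hba-a1 (ENSMUSG00000069919.7, chr11:32283511-32284465) and Hba-a2 (ENSMUSG00000069917.7, chr11:32296489-32297298) lay on the plus strand of chromosome 11. Hbb-bs (ENSMUSG00000052305.6, chr7:103826534-103828096) and Hbb-bt (ENSMUSG00000073940.3, chr7:103812524-103813996) lay on the minus strand of chromosome 7, and Alas2 (ENSMUSG00000025270.13, chrX:150547375-150570638) on the plus strand of the X chromosome. Each pair of globin genes codes for the same protein through nearly the same letters. Of 429 coding bases, Hba-a1 and Hba-a2 differed at 1, written C381T when positions are counted from 1 at the first base of the coding sequence and the base of Hba-a1 is given first. Of 444 coding bases, Hbb-bs and Hbb-bt also differed at 1, C417T with the base of Hbb-bs first. Both changes fell at position 3 of a codon and 0 residues differed. The stretches around these bases, taken from the GENCODE M21 transcripts, are shown because they hold the one coding difference that tells each pair apart, which is in capitals.
Hba-a1: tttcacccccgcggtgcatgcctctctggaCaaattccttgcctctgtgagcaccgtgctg
Hba-a2: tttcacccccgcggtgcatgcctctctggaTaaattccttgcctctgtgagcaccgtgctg
Hbb-bs: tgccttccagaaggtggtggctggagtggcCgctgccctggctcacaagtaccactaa
Hbb-bt: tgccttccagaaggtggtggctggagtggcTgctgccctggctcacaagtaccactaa

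Within the coding sequence, reads of a pair were therefore split by few letters. Cut into words of 31 bases, the main Hba-a1 and Hba-a2 transcripts shared 477 words, which was 71.3% of the words of Hba-a1 and 91.0% of those of Hba-a2. Over the whole transcript, Hba-a1 had 192 words of its own and Hba-a2 had 47, of which 31 in either gene lay in the coding sequence. The main Hbb-bs and Hbb-bt transcripts shared 400 words, or 66.9% and 59.4% of their words. Hbb-bs had 198 words of its own and Hbb-bt had 273, of which 28 in either gene lay in the coding sequence. The values of single paralogues are thus less certain than the sum of a pair. An alpha-globin transcript (Hba-a2) and a beta-globin transcript (Hbb-bs) shared 0 words, as did Hbb-bs and Alas2.

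The promoters are shown as a description of the genes, and their part in the levels given below was not tested. They are the 130 bases before the RefSeq start (GRCm38.p6), with 4 short motifs in capitals where they occur on either strand. The RefSeq starts lie inside the gene spans given above, which are those of GENCODE M21. Each stretch therefore falls partly or wholly within the span of its gene. The motif TATAA places the start of transcription in many genes. The motif CCAAT is common in promoters of many kinds. The motif CACCC is read by erythroid factors such as Klf1, and GATAA is the core of a site for factors such as Gata1. A motif on the opposite strand appears as its reverse complement. In Hbb-bt a CCAAT box on the opposite strand is followed directly by one on the same strand, and the run of capitals near the end of the Alas2 stretch holds 3 adjoining CACCC boxes of the opposite strand.
Hba-a2 (chr11:32296362-32296491, plus strand): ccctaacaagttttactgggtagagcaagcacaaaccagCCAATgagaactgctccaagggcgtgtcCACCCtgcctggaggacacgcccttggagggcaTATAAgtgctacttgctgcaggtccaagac
Hbb-bs (chr7:103827929-103828058, minus strand): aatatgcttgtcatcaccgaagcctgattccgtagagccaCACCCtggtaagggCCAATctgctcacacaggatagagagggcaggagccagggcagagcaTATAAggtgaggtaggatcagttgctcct
Hbb-bt (chr7:103813924-103814053, minus strand): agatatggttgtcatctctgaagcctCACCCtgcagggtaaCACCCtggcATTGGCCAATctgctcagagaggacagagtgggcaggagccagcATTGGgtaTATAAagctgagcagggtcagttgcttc
Alas2 (chrX:150547287-150547416, plus strand): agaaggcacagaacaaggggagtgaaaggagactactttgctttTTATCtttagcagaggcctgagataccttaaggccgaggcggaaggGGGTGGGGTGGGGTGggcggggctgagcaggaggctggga

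The Hba-a1 promoter is not printed because, at a shift of 3 bases, it was identical to that of Hba-a2 at 247 of 247 bases compared. In the 250 bases before the start, all 4 globin promoters held each of the 4 motifs, with a TATAA beginning 27 to 30 bases before the start and a GATAA beginning 182 to 209 bases before it. Alas2 held a GATAA 86 bases before its start and 3 CACCC boxes between 40 and 26 bases before it, all on the opposite strand, and a TATAA 207 bases before it, but no CCAAT. Over 32851 promoter windows of the same length, 22.8% held a TATAA, 33.8% a CCAAT, 52.0% a CACCC, 22.6% a GATAA and 0.968% all 4. A match of letters is a description of the window and not of what binds there.

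Hbb-bs and Hba-a2 were abundant transcripts in this tissue. Scaled by transcript length and library depth (TPM), Hbb-bs was at 772 ± 312 in CTRL (SD, n = 4) and 954 ± 257 in Emul (SD, n = 5), and ranked 74 of 27665 genes by its mean. Hba-a2 was at 665 ± 322 TPM in CTRL and 909 ± 270 TPM in Emul, ranking 88. Hba-a1 followed with 224 ± 115 and 304 ± 89.6 TPM, then Hbb-bt with 106 ± 51.1 and 132 ± 54.2 TPM, and last Alas2 with 9.47 ± 3.33 and 11.1 ± 1.76 TPM, at rank 10255. Within libraries this order was firm except at its top. Hbb-bs exceeded Hba-a2 in 7 of 9 libraries, with a ratio of TPM between 0.979 and 1.38, and their difference within libraries was not tested. Hba-a2 exceeded Hba-a1 in 9 of 9 libraries (by 2.73-fold to 3.53-fold), Hba-a1 exceeded Hbb-bt in 9 of 9 (1.90-fold to 2.85-fold) and Hbb-bt exceeded Alas2 in 9 of 9 (8.65-fold to 15.8-fold).

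The libraries held between 28245360 (CTRL 3) and 46067534 (Emul 4) estimated counts, which gave every member more than 100 counts in every library. The lowest single value was 121 counts, for Alas2 in CTRL 3. Levels by library are given as log2 CPM, the log2 of counts relative to library depth, after scaling by the trimmed mean of M-values (TMM).

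Of the alpha-globin genes, Hba-a1 was at 6.29, 6.63, 4.87 and 5.39 log2 CPM in CTRL 1 to 4 and at 6.02, 6.71, 6.11, 6.995 and 6.38 in Emul 1 to 5. CTRL 3 and CTRL 4 lay below every Emul library, whereas CTRL 1 and CTRL 2 lay within the Emul range. Hba-a2, the more abundant of the pair, was at 7.29, 7.79, 6.21 and 6.49 log2 CPM in CTRL and at 7.09, 7.84, 7.20, 8.11 and 7.62 in Emul. The libraries took the same order for both genes, with Emul 4 highest and CTRL 3 lowest.

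The beta-globin gene Hbb-bs was at 7.78, 8.11, 6.68 and 7.20 log2 CPM in CTRL and at 7.33, 8.06, 7.72, 8.39 and 7.99 in Emul. Hbb-bt was at 5.19, 5.55, 3.96 and 4.35 log2 CPM in CTRL and at 4.67, 5.52, 5.01, 6.01 and 4.89 in Emul. For both genes CTRL 2 ranked second only to Emul 4, and Emul 1 was the lowest Emul library.

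Alas2 was at 3.16, 3.39, 2.10 and 2.62 log2 CPM in CTRL and at 2.83, 3.33, 3.17, 3.65 and 3.20 in Emul. Its 3 lowest libraries (CTRL 3, CTRL 4 and Emul 1) and its highest library (Emul 4) were those of the globin genes. The groups overlapped for all 5 genes, that is, 0 of 5 separated, where 6.6% of all genes tested did.

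**Figure D1:**
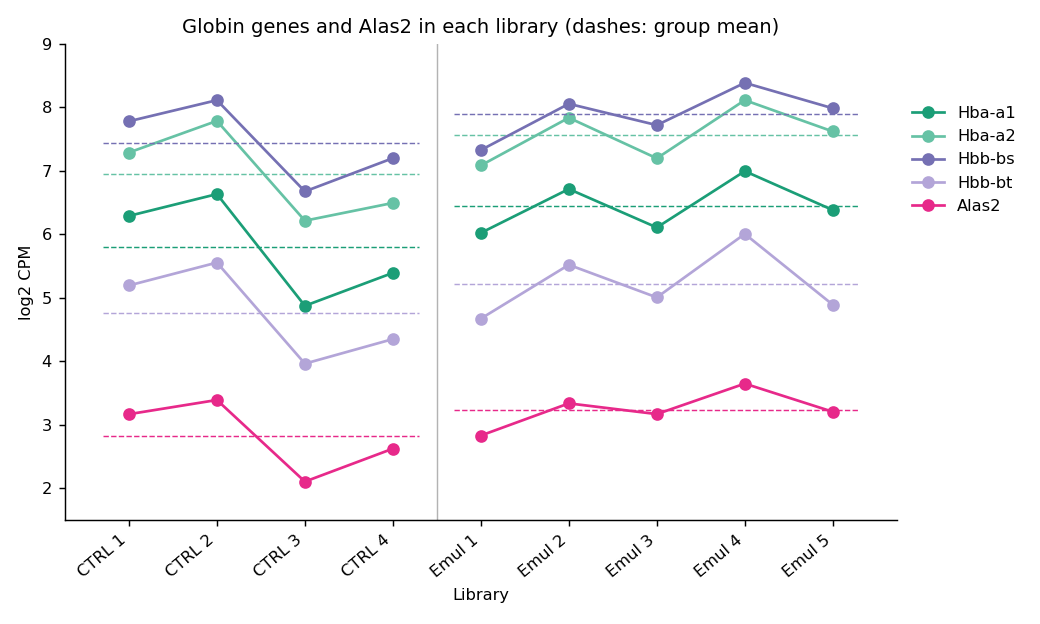
Level of each of the 5 genes (log2 CPM, vertical axis) in the 4 CTRL and 5 Emul libraries (horizontal axis), with dashes at the group means and lines joining the points of a gene only to guide the eye. The 5 curves move together, from lowest in CTRL 3 to highest in Emul 4, and the groups overlap.

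These genes varied far more between litters than most genes did. From the lowest to the highest library, Hba-a1 spanned 4.35-fold, Hbb-bt 4.13-fold, Hba-a2 3.73-fold, Hbb-bs 3.28-fold and Alas2 2.92-fold in CPM. The CTRL libraries alone spanned 2.44-fold (Alas2) to 3.39-fold (Hba-a1), and the Emul libraries alone 1.76-fold (Alas2) to 2.52-fold (Hbb-bt). The SD of log2 CPM within groups was 0.63 for Hbb-bt, 0.61 for Hba-a1, 0.57 for Hba-a2, 0.51 for Hbb-bs and 0.44 for Alas2, against a median of 0.087 over all genes tested. Between 98.1% (Alas2) and 99.2% (Hbb-bt) of the genes tested had a smaller within-group SD.

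**Figure D2:**
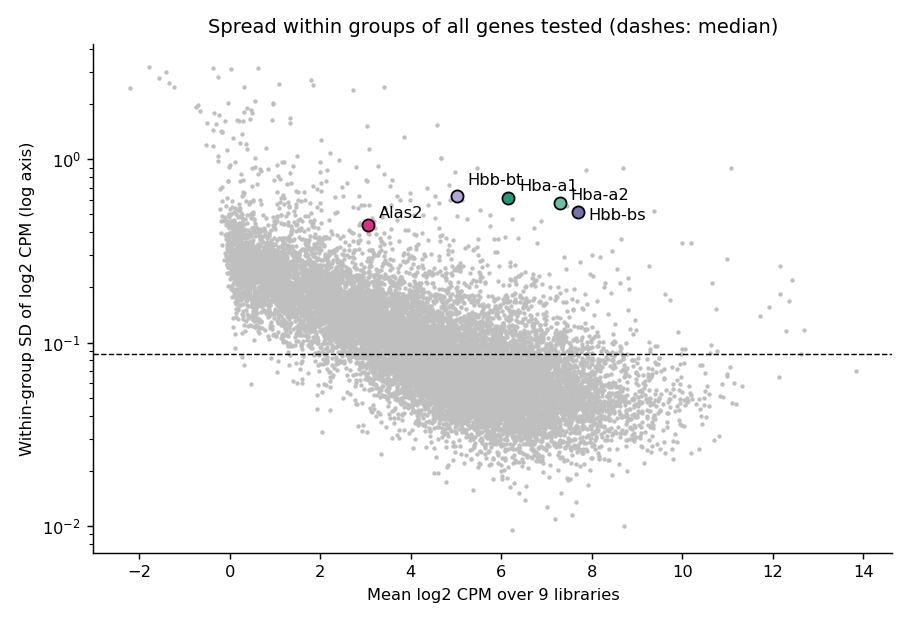
Within-group SD of log2 CPM (vertical axis, log scale) against the mean log2 CPM over 9 libraries (horizontal axis) for the 15340 genes tested (grey) and the 5 genes described here (coloured). The 5 genes lie between 0.44 and 0.63, above most genes of similar level, and the dashes mark the median of 0.087.

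Summed over the 4 globin genes, haemoglobin transcripts took from 0.0223% (CTRL 3) to 0.0791% (Emul 4) of all estimated counts, a 3.54-fold range. The mean was 0.0412% ± 0.0189 in CTRL (SD, n = 4) and 0.0558% ± 0.0161 in Emul (SD, n = 5).

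Maternal emulsifier consumption was compared with control by limma-voom over all genes tested, with an unadjusted p under 0.05 and a fold change above 1.5 as the cutoff. The 5 genes were on average higher in Emul, yet 0 of 5 passed this cutoff, which 0.469% of all genes tested passed in either direction and 0.248% as higher in Emul. For Hba-a1 the log2 fold change was 0.62 (SE 0.31), or 1.54-fold with a 95% interval from 0.969 to 2.44 (limma, Benjamini-Hochberg adjusted p = 0.35). For Hba-a2 it was 0.62 (SE 0.29), or 1.53-fold with an interval from 0.986 to 2.38 (limma adjusted p = 0.33). The interval of each alpha-globin gene thus held both no difference and a doubling.

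The beta-globin genes and Alas2 gave smaller values. Hbb-bs was 1.36-fold higher in Emul, with an interval from 0.918 to 2.01 (limma adjusted p = 0.43), and Hbb-bt 1.35-fold, from 0.827 to 2.20 (limma adjusted p = 0.55). Alas2 was 1.31-fold higher, from 0.934 to 1.83 (limma adjusted p = 0.42). With each globin pair summed into 1 row, the log2 fold change of alpha-globin was 0.62 (limma adjusted p = 0.33). That of beta-globin was 0.45 (limma adjusted p = 0.44), and neither pair passed the cutoff. An unadjusted p under 0.05 was reached by 0 of 5 genes, against 15.8% of all genes tested. A fold change above 1.5, whatever its p, was reached by 2 of 5, Hba-a1 and Hba-a2, against 0.508% of all genes tested as higher in Emul. The median log2 fold change was 0.44 over the 5 genes and 0.0015 over all genes tested, and the median SE over all genes tested was 0.058, several times below those of the globin genes. The edgeR quasi-likelihood test and DESeq2 also placed 0 of 5 past the cutoff and 0 of 5 at an unadjusted p under 0.05.

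Single litters moved these values. Without CTRL 3, the lowest library, the log2 fold changes lay between 0.20 (Alas2) and 0.39 (Hba-a2) and 0 of 5 genes passed the cutoff. Without CTRL 2, the highest CTRL library, they lay between 0.58 (Alas2) and 0.90 (Hba-a1), and 3 of 5 passed it: Hba-a1, Hba-a2 and Hbb-bs. The same 3 passed without Emul 1, with log2 fold changes of 0.73, 0.74 and 0.59. Without CTRL 1 the 2 alpha-globin genes passed, at 0.78 and 0.73, and without Emul 3 only Hba-a2 did, at 0.71. Without CTRL 4 the log2 fold changes fell between 0.26 and 0.47, and without Emul 4 between 0.22 and 0.48, with 0 of 5 past the cutoff in both. The adjusted p stayed above 0.05 for each gene in each of these fits.

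**Figure D3:**
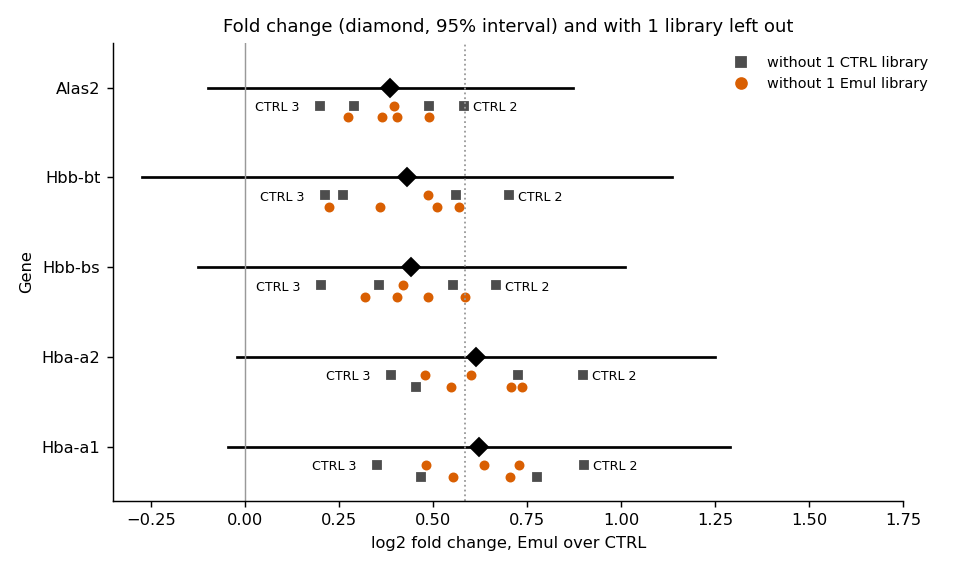
log2 fold change of Emul over CTRL (horizontal axis) for each gene (vertical axis), with its 95% interval from limma-voom (diamond and line) and the values with 1 library left out below it (squares for a CTRL library, circles for an Emul library). Each interval holds 0, the values without CTRL 3 (0.20 to 0.39) are at the left end and those without CTRL 2 (0.58 to 0.90) at the right, and the dotted line marks a 1.5-fold change.

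Ratios within a library do not depend on how it was scaled, and they showed how tightly the 5 genes were held together. The log2 ratio of alpha-globin to beta-globin counts was -0.13, -0.02, -0.19 and -0.34 in CTRL and 0.11, 0.10, -0.17, 0.02 and -0.02 in Emul, a span of 1.37-fold while the globin sum spanned 3.54-fold. Emul 1, Emul 2, Emul 4 and Emul 5 were above every CTRL library and Emul 3 lay among them. The means were -0.17 ± 0.14 (SD, n = 4) and 0.01 ± 0.11 (SD, n = 5), a difference of 0.18 that did not pass a two-sided exact permutation test (p = 0.063, adjusted over the 4 ratios and shares p = 0.25). The smallest p that the 126 splits of these libraries allow is 0.0079.

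The proportion of Alas2 to the globin sum varied less than that sum did. The log2 ratio of Alas2 to globin counts was -5.78, -5.95, -5.70 and -5.62 in CTRL and -5.78, -6.01, -5.68, -6.01 and -5.94 in Emul, a span of 1.31-fold. It was lowest in Emul 2 and Emul 4, where the summed globin CPM was highest. In CTRL 3 and CTRL 4, where that sum was lowest, the ratio was among the higher values. The relation of the ratio to the globin level was not tested. The group means of the ratio differed by -0.12 (exact permutation p = 0.25, adjusted p = 0.51). The shares of the paralogues also overlapped. Hba-a1 made up 31.1% ± 2.12 of alpha-globin counts in CTRL (SD, n = 4) and 31.4% ± 0.991 in Emul (SD, n = 5; exact permutation p = 0.78, adjusted p = 0.92). Hbb-bt made up 13.5% ± 1.08 of beta-globin counts in CTRL and 13.6% ± 2.09 in Emul (exact permutation p = 0.92, adjusted p = 0.92), with the lowest share, 10.4%, in Emul 5 and the highest, 16.1%, in Emul 4. The direction of both small differences in share turned when single libraries were left out.

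**Figure D4:**
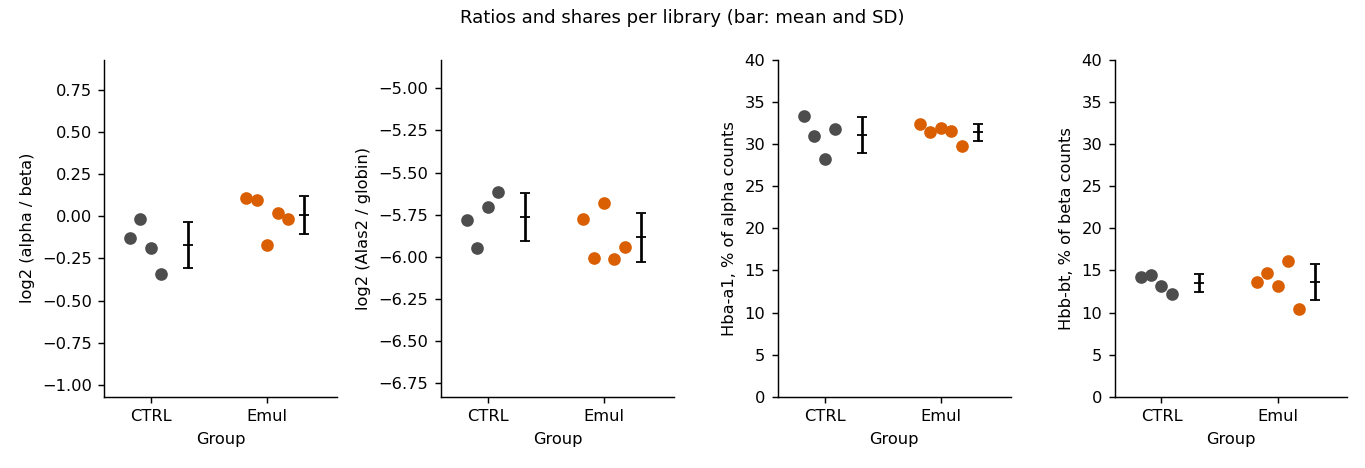
Values of 4 ratios and shares per library (points) in CTRL and Emul (horizontal axis), with the group mean and SD beside them. The alpha to beta ratio is higher on average in Emul by 0.18 on the log2 scale with CTRL and Emul libraries overlapping, and the other panels show group means that lie within the spread of the libraries.

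The messages counted were almost wholly the spliced, coding forms. Of Hba-a2 counts 100% fell on its coding transcript in each library, and the retained-intron form had 0 counts in 9 libraries. The retained-intron form of Hba-a1 took at most 0.670% of the counts of that gene. The 2 minor forms of Hbb-bs together had under 10 counts in each library. Alas2 differed, since its counts were split between a coding transcript of 2037 bases, with 45.6% to 94.6% of them, and a shorter coding transcript of 1892 bases. The share of the shorter one was 29.9%, 23.0%, 0% and 13.8% in CTRL 1 to 4 and 22.7%, 50.1%, 21.4%, 28.9% and 48.3% in Emul 1 to 5. Emul 2 and Emul 5 held the highest shares and CTRL 3, with the fewest counts, none, and the groups overlapped. Of the words of 31 bases, 27 belonged to the shorter transcript alone and 172 to the longer alone.

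Across the 9 libraries the level of Alas2 followed that of the globin sum. On the log2 CPM scale, Pearson's r was 0.986 (permutation p = 1.1e-05, adjusted over 9 relations p = 9.9e-05) and Spearman's rho was 0.967 (permutation p = 0.00017, adjusted p = 0.0015). With each group centred on its mean, r was 0.982 (permutation p = 0.00035), and without CTRL 3 and CTRL 4, the libraries farthest from the median globin level, r was 0.966 (permutation p = 0.0016). The points share their library and its depth.

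None of the other 8 measures passed after adjustment over the 9 relations. Genes of vessels and of tissue borders gave r of -0.07 (endothelium), 0.16 (pericytes and smooth muscle), 0.28 (choroid plexus) and -0.23 (meninges), and microglia gave -0.07. Their rho values were -0.05, 0.08, 0.30, -0.20 and -0.13, and the adjusted permutation p over the 9 relations was 0.82 or more for r and 0.79 or more for rho in each. Genes of the red cell membrane and of its enzymes gave r = 0.57 and rho = 0.33 (adjusted permutation p = 0.32 and p = 0.79), and r was 0.01 without CTRL 3 and CTRL 4, so that relation rested on these libraries. The share of counts on the mitochondrial genome gave r = 0.39 and rho = 0.32 (adjusted permutation p = 0.67 and p = 0.79). The log2 library total gave r = 0.69 and rho = 0.50 (permutation p = 0.039 and p = 0.18, adjusted p = 0.18 and p = 0.79). CTRL 3, with the lowest globin level, was also the library with the fewest counts, and Emul 4, with the highest, the one with the most. The part of depth in the globin values was not tested.

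**Figure D5:**
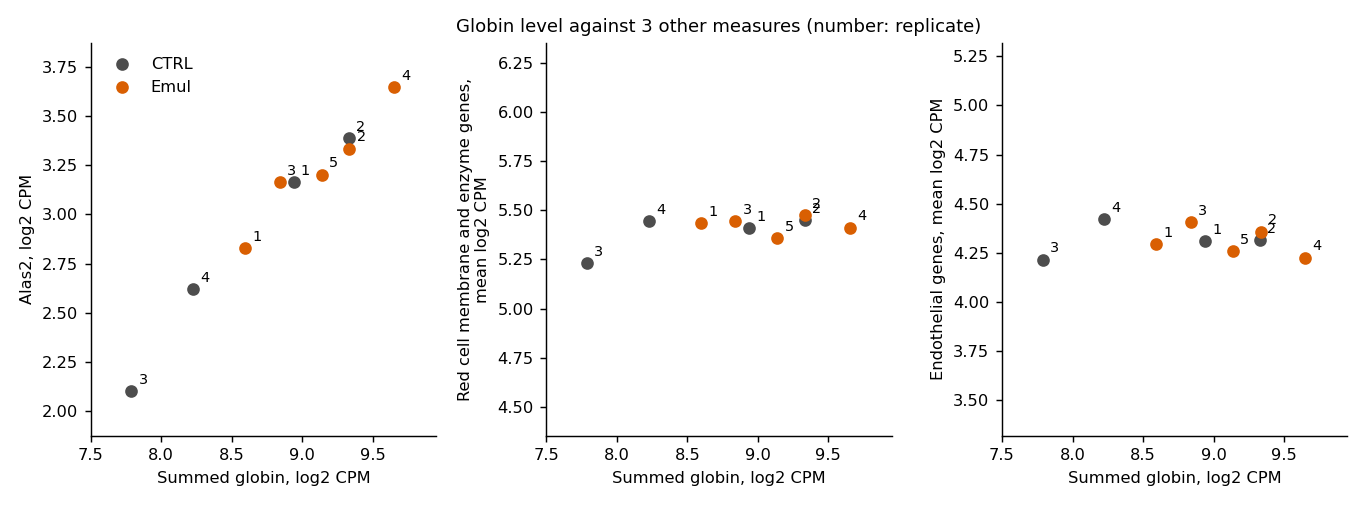
Level of Alas2 (left), of red cell membrane and enzyme genes (middle) and of endothelial genes (right), each as log2 CPM over the same height of axis, against the summed globin level in log2 CPM (horizontal axis), 1 point per library with its replicate number. Alas2 lies along a line (r = 0.986) while the other panels span less on their axes (r = 0.57 and -0.07).

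Embryonic and minor globin genes were at or near the limit of detection, and 0 of 6 passed the filter. Hbb-bh1 and Hbb-bh2 had 0 counts in every library, Hba-x had 2 counts in all libraries together, Hbb-y had at most 4 in a library and Hbq1b at most 8.27. Hbq1a, the minor theta-type gene, had from 18.8 to 51.8 counts. Of the globins made outside the red cell, neuroglobin (Ngb), found in neurons, had a log2 fold change of -0.03 and cytoglobin (Cygb) of -0.01, and of the 3 genes of this list tested 0 passed the cutoff and 0 had an unadjusted p under 0.05, with a median of -0.01.

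Of the 8 other genes of haem synthesis tested, 0 passed the cutoff and 0 had an unadjusted p under 0.05, with a median log2 fold change of -0.02. Alas1, the housekeeping relative of Alas2, had a log2 fold change of 0.09 (SE 0.05), and Fech, which inserts iron into the ring, of 0.03 (SE 0.03). In red cell membrane and enzyme genes 12 of 23 passed the filter, 0 passed the cutoff and 0 had an unadjusted p under 0.05, with a median of 0.04. Their member with the highest log2 CPM, which is not corrected for length, was Add2, an adducin of the membrane skeleton that neurons also express, with a log2 fold change of 0.06 (SE 0.03). In reticulocyte maturation genes 10 of 13 were tested and 0 passed the cutoff, with a median of 0.01. Xpo7, an exportin also expressed in brain, had a log2 fold change of 0.08 (limma adjusted p = 0.25). Among regulators of red cell formation 8 of 12 were tested, 0 passed the cutoff and 0 had an unadjusted p under 0.05, with a median of 0.04.

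Several genes restricted to red cells fell below the filter, and they are given here after their values were seen. Slc4a1, the anion exchanger of the red cell membrane, was at 0.78, 1.48, 0.56 and 0.51 CPM in CTRL and at 0.81, 1.98, 0.61, 2.05 and 0.77 CPM in Emul. It was highest in Emul 4, whereas Rhag, Hemgn and Icam4, red cell genes of the same list and also below the filter, were highest in CTRL 3, the library with the lowest globin level, at 0.643, 0.550 and 0.771 CPM. The transcription factors of nucleated red cell precursors were scarce, with at most 5 counts of Gata1, 8.75 of Klf1 and 4 of Gfi1b in a library.

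Haem and iron handling genes, which recycle haem and store or move its iron, had 20 of 22 tested and 0 past the cutoff, with a median log2 fold change of -0.07. An unadjusted p under 0.05 was found for 3 of the 20, near the 15.8% of all genes tested, the haem exporter Flvcr1 at -0.09, the iron transporter Slc11a2 at -0.12 and the iron sensor Aco1 at -0.12, with an adjusted limma p of 0.30, 0.18 and 0.20. Genes of the hypoxia response had 15 tested and 0 past the cutoff, with a median of 0.04. An unadjusted p under 0.05 was found for 3 of the 15, against 15.8% of all genes tested, Hif3a at 0.44, the glucose transporter Slc2a1 at 0.16 and Bnip3 at 0.10, with an adjusted limma p of 0.14, 0.20 and 0.26.

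Markers of other cells that blood or the dissection could bring were given the same description. Platelet genes had 4 of 10 tested and 0 past the cutoff (median 0.03), and their summed level was 10.6 to 12.8 CPM in CTRL and 11.6 to 13.3 CPM in Emul. Neutrophil genes had 0 of 10 tested, since all 10 fell below the filter, with 2.21 to 2.60 CPM in CTRL and 2.88 to 4.22 CPM in Emul. These low sums did not overlap, where the groups of 6.6% of all single genes tested did not either. Lymphocyte genes had 3 of 13 tested (median -0.02) with 9.27 to 11.1 CPM in CTRL and 9.08 to 14.2 CPM in Emul, and monocyte genes 3 of 6 (median -0.17) with 7.43 to 8.99 CPM and 6.65 to 9.21 CPM, with 0 past the cutoff in both and 1 gene in each at an unadjusted p under 0.05, Trbc2 and Ms4a6c. The part of white cells in the globin values was not tested.

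Vessel and border genes had 0 past the cutoff among 15 endothelial, 11 pericyte and smooth muscle, 5 choroid plexus, 9 meningeal and 8 microglial genes tested, with medians of 0.006, 0.00037, -0.0048, -0.059 and 0.015, and 1 gene, the endothelial Slco1a4, had an unadjusted p under 0.05. Endothelial genes summed to 348 to 401 CPM in CTRL and 354 to 403 CPM in Emul, while the globin sum ran from 221 to 804 CPM over the libraries. Genes that mark the MBH had 13 of 14 tested and 0 past the cutoff (median -0.0028), summing to 451 to 521 CPM in CTRL and 451 to 530 CPM in Emul, while pituitary genes, with 2 of 8 tested (median -0.08), summed to 8.46 to 12.6 CPM and 8.39 to 11.8 CPM. Transcripts of the mitochondrial genome moved with the groups. Of its 13 genes tested 3 passed the cutoff as higher in Emul, mt-Co2, mt-Nd3 and mt-Atp6, with a median of 0.37 over the 13, and the count was 1 by edgeR, with library size alone, with no filter and without CTRL 3 or Emul 2, and 5 without CTRL 1, CTRL 4 or Emul 4. The mitochondrial share of counts was 4.51% to 5.52% in CTRL and 5.71% to 6.75% in Emul. With these genes left out before scaling, the log2 fold changes of the 5 haemoglobin and Alas2 genes lay between 0.39 and 0.62 and 0 of 5 passed the cutoff.

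Over all genes tested, likeness to the mean of the 5 genes was measured as Pearson's r over the 9 libraries with each group centred on its mean, as a description. The 5 genes themselves held ranks 1 to 5, with r from 0.98 to 0.99, since they make up that mean. The 10 genes that came next were Ctnna3, Ptprd, Ccl9, AC125059.1, B3galt5, St6galnac3, Tmx3, Trove2, Erbin and Rfc4, with r from 0.93 down to 0.90. They moved far less, spanning 0.10 (Tmx3) to 0.87 (Ctnna3) on the log2 scale from lowest to highest library, against 1.54 (Alas2) to 2.12 (Hba-a1). An r of 0.9 or more was reached by 15 of all genes tested, 5 of them the members. Of the 38 genes tested from the lists on haem synthesis, red cell membrane, reticulocytes and erythroid regulators, 0 reached it. With so few such genes over the whole table, a count of 0 does not set these lists apart. Epb41, a protein of the membrane skeleton, came highest at 0.75 and Dmtn, another such protein, lowest at -0.77.

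In the log2 CPM table deposited by the authors the 5 genes were also lowest in CTRL 3 and highest in Emul 4. Hba-a1 ranged there from 5.02 to 7.09, Hba-a2 from 6.39 to 8.21, Hbb-bs from 6.84 to 8.48, Hbb-bt from 4.11 to 6.11 and Alas2 from 2.27 to 3.62. For the 4 globin genes the libraries took the same order as in the summed counts, and for Alas2 a different one.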

How the data were processed

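RNAseq was made from MBH of 9 male mice, 4 CTRL and 5 Emul, grouped by the sample titles. The authors prepared stranded mRNA libraries and quantified mm10 transcripts with kallisto 0.46.1 (submitters' processing notes, which also name FastQC 0.11.9 and edgeR 3.40.1). The deposited estimated counts and TPM values are per transcript and library, and the deposited table of the authors holds log2 CPM per gene, whose gene summary is not given in the sources used here. Counts were summed per gene through GENCODE M21, which matched 97.8% of the transcripts, and unmatched transcripts held 1.20% to 1.27% of the counts. Total estimated counts ran from 28245360 to 46067534 per library, and no pair of libraries within a group agreed within sampling noise (chi-square per gene 6.48 or more). Genes with CPM above 1 in at least 4 libraries were tested by voom and limma 3.58.1 in R 4.3.3 with TMM from edgeR 4.0.16. The filter, the cutoff and limma are those of the methods of the study, while voom and TMM were chosen here. A prior count of 2 was used for log2 CPM. Ratios and shares were compared by two-sided exact permutation over 126 splits, and correlations by permutation. DESeq2 1.42.0 and the edgeR quasi-likelihood test on rounded counts, other scalings, filters and gene summaries, a replicate block and each library left out were the alternatives.

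The 5 genes and the gene lists were chosen with earlier results of these data known. Named genes were the 5 members, list genes past the cutoff, the most abundant or undetected gene of a list, any tested gene of the red cell lists, and the 10 genes most like the members. List genes with an unadjusted p under 0.05 and the unfiltered red cell genes were named after their values were seen. Results for some list genes are not reported here. On simulated counts for Emul over CTRL (15259 genes, 194 changed 2-fold), voom recovered 99.0% of the changed genes, and 2.54% of its calls were false. Calls there were made at an adjusted p under 0.05, and all genes were given the same spread. That spread was below that of the 5 genes (within-group SD 0.44 to 0.63), whose fold changes were also smaller (1.31 to 1.54). The simulation therefore does not tell whether a change in these genes would be found.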

Additional observations from a re-analysis of the deposited data

How the results depend on the processing

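All 5 genes were higher in Emul on average in each alternative run, and none had an adjusted p under 0.05. With 1 library left out, the log2 fold change ranged from 0.35 to 0.90 for Hba-a1, 0.39 to 0.90 for Hba-a2 and 0.20 to 0.67 for Hbb-bs, with passes of the cutoff as given above, and from 0.21 to 0.70 for Hbb-bt and 0.20 to 0.58 for Alas2 with none. With counts scaled from TPM by length, Hba-a2 passed at 0.62 (limma adjusted p = 0.37). Leaving out 1 library moved the alpha to beta difference between 0.12 and 0.23, with an exact permutation p = 0.029 without Emul 3, the Hba-a1 share between -0.63 and 1.06 percentage points and the Hbb-bt share between -0.52 and 0.89, both changing sign. Without CTRL 3 and CTRL 4, r of globin turned to -0.42 for pericytes, -0.45 for choroid plexus, 0.38 for microglia and -0.23 for the mitochondrial share, which was -0.048 when centred within groups. The cause was not tested. With the replicate block, log2 fold changes were 0.62, 0.60, 0.42, 0.51 and 0.37 for Hba-a1, Hba-a2, Hbb-bs, Hbb-bt and Alas2, with 0 past the cutoff. Same-numbered libraries did not deviate together (correlations from -0.16 to 0.02), and no label says that the numbers pair litters. Whether same-numbered libraries shared a batch was not tested. Without a filter 683 genes of the whole table passed the cutoff and with CPM above 1 in all libraries 37, against 72, and 3 neutrophil and 1 pituitary genes of low count passed without a filter. Among the 5 haemoglobin and Alas2 genes the lowest count in a library was 121, for Alas2 in CTRL 3. The part of depth in the values of Alas2 was not tested.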
